A study of Mus musculus with 8 samples.

Results

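Manba and its chromosome 3 neighbours Ube2d3 and Nfkb1 are described here as 3 of 21887 protein-coding genes of the RefSeq table used. Manba was chosen because earlier results of the same peak lists had shown many peaks after treatment inside it, and its neighbours were added by position. Every acetylation peak that overlapped one of the 3 gene intervals extended by 50 kb on each side was taken. On mm10, Ube2d3 lies on chromosome 3 at 135438232 to 135468214, Manba at 135485611 to 135571404 and Nfkb1 at 135584655 to 135691969. Together the extended intervals form a window of 354 kb, from 135388232 to 135741969. It held 63 of the 82792 regions formed by merging the peaks of all libraries.

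Acetylation of lysine 27 on histone H3 (H3K27ac) was mapped by chromatin immunoprecipitation and sequencing in E14tg2a mouse embryonic stem cells of 129SV background. The treated cells had received 250 nM 4-hydroxytamoxifen (4OHT) for 2 h, and the comparison cells were untreated. Clones a and b were profiled under each condition, which gives 2 libraries per group. All cells, the untreated ones included, carried a stable cRAF-ErT2 cassette, a RAF kinase fused to a hormone-binding domain that 4OHT switches on, upstream of the MAP kinase ERK. The promoter that drives it is not named in the labels. All cells had been kept in serum with LIF and 2 uM Chir99021, and from 24 h before treatment in serum with LIF and the FGF receptor inhibitor PD173074 at 250 nM. There was no vehicle group, so 4OHT itself and the kinase it activates cannot be told apart.

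Manba encodes beta-mannosidase, a lysosomal enzyme that removes terminal mannose during the breakdown of glycoprotein sugars. Ube2d3 encodes an E2 ubiquitin-conjugating enzyme. Nfkb1 encodes p105, the precursor of the p50 subunit of the transcription factor NF-kappaB. H3K27ac is deposited by the acetyltransferases p300 and CBP and is found at active promoters and enhancers. Enhancers often lie inside genes, and the gene that holds an enhancer need not be the one it acts on. RNA was not measured in these data, nor was enhancer activity, so the regions are called acetylated regions below.

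The lists held 59170 and 62764 peaks in treated clones a and b, against 61203 and 63276 in untreated clones a and b, and covered 50.4 to 53.1 Mb. The lists give no read depth, and a stretch without a peak may still carry some acetylation. Around the pluripotency genes Pou5f1, Nanog and Esrrb, peaks covered 26.4 to 53.2 kb in every library, whereas Gata6, a primitive endoderm gene, had at most 0.607 kb and Fgf5, a gene of the primed epiblast, had 0 kb in all 4.

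After 4OHT, acetylated peaks spread over much of Manba. Within Manba and 50 kb on each side, peaks covered 45.3 and 39.2 kb in treated clones a and b, against 14.9 and 14.7 kb in untreated clones a and b. Both treated libraries lay far above both untreated ones. The means were 42.2 ± 4.29 kb and 14.8 ± 0.163 kb (SD, n = 2 clones each), and the log2 change of covered length, with 500 bp added to each value, was 1.48 ± 0.12 (SE). Because Manba was picked for this contrast, its change is given as a description with no test. Among 16049 loci the Manba window had the largest gain in kb (27.4 kb), and the highest value elsewhere in the genome was 27.2 kb. On the log2 scale it ranked 208, and the median of all loci was 0.08.

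**Figure D1:**
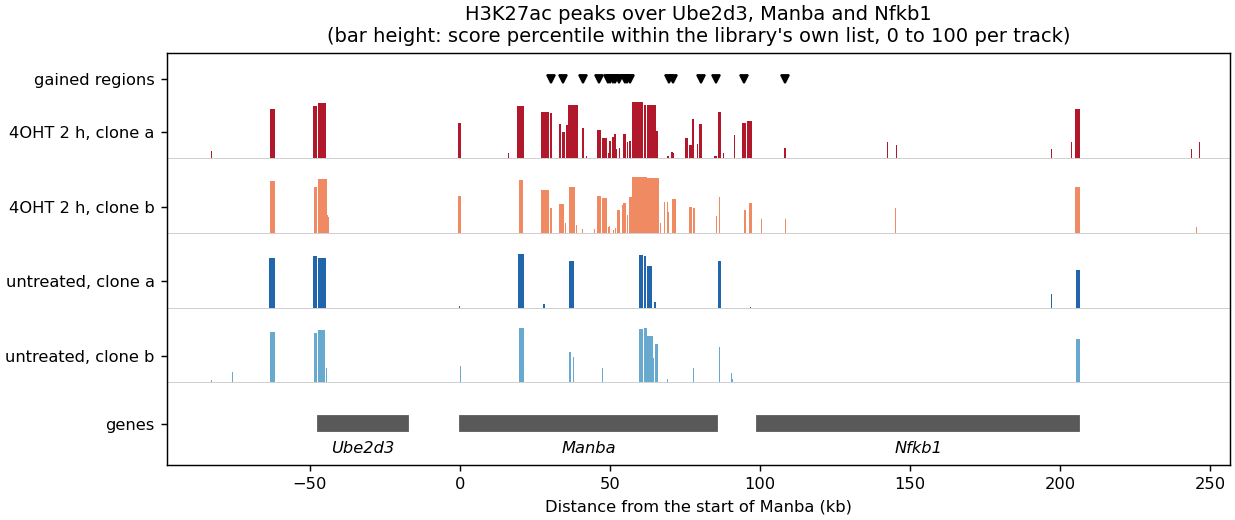
H3K27ac peaks in each library against distance from the start of Manba (kb). Each bar is a peak, drawn to its width, and its height is the percentile of its score within that library's own list; triangles mark the 18 regions called in both treated and neither untreated library, 16 of which lie in Manba.

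The gain was concentrated in the gene itself. Peaks covered 35.3 and 31.6 kb of the 85.8 kb Manba interval in treated clones a and b, against 9.18 and 9.87 kb in untreated clones a and b. As a share of the gene that was 41.1% and 36.8% in treated cells, and 10.7% and 11.5% in untreated cells. The number of peaks was 36 and 35 in treated cells, and 8 and 14 in untreated cells. The Manba interval accounted for 82.8% of the whole increase over the 354 kb window. The next largest share, 7.12%, fell between Manba and Nfkb1.

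**Figure D2:**
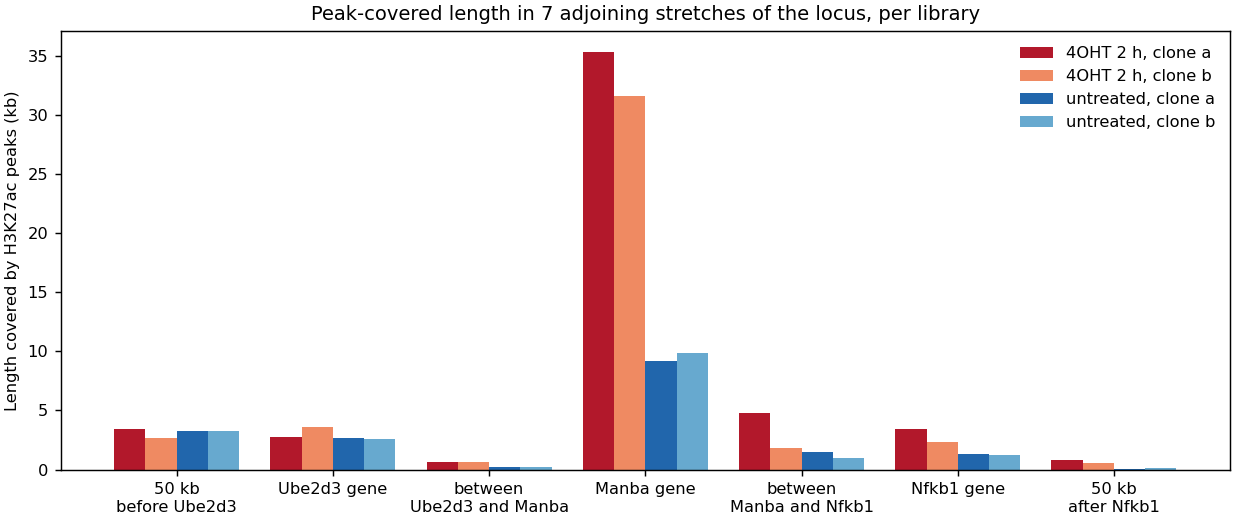
Length covered by H3K27ac peaks (kb) in 7 adjoining stretches of the window, 1 bar per library. Bars for the Manba gene reach 35.3 and 31.6 kb in treated cells, against 9.18 and 9.87 kb in untreated cells; no other stretch exceeds 4.76 kb in any library.

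Regions were sorted by the libraries in which they were called. In the window 18 regions were gained, meaning called in both treated and neither untreated library, and 0 were lost, the opposite pattern. Across the genome 6.20% of regions were gained and 6.26% lost. Manba was chosen for this excess, so the comparison adds no evidence. Of the gained regions 16 lay in Manba, 1 between Manba and Nfkb1 and 1 in Nfkb1. A further 12 regions were called in all 4 libraries and 33 showed other patterns, among them 23 called in a single treated library only and 4 called in both treated and 1 untreated library. The count depended on how regions were built. With peaks within 1000 bp merged, 4 regions were gained, and these held 2 of the 18. With only the upper 50% of each list by score, 5 were gained, which also held 2 of the 18.

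The gained regions of the window were wider than gained regions in general, and those in Manba lay closer to regions called in all 4 libraries; these are descriptions with no test. Their widths ran from 291 to 2173 bp with a median of 800 bp, where all 5130 gained regions had a median of 527 bp. In Manba 14 of the 16 were within 5 kb of a region called in all 4 libraries, and the median distance was 1.44 kb. The same held for 39.7% of all gained regions, whose median distance was 9.95 kb. Gained regions of the window had a median score percentile of 33.5 in treated clone a and 34.1 in treated clone b, with the best at 79.7 and 65.8. Across the genome the medians were 35.2 and 38.5. These are the authors' own peak scores, ranked within each list.

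The widest gained region lay 34.2 kb into Manba (chromosome 3, 135518739 to 135520911). Peaks covered 1805 and 1838 bp of it in treated clones a and b. The next, 71.0 kb into the gene (135555834 to 135557443), had 1026 and 1363 bp. A gained region 46.4 kb into the gene (135531236 to 135532786) had 1551 and 1387 bp. All of these had 0 bp in both untreated libraries. The lowest score percentile, 0.521 in treated clone b, belonged to a gained region 80.2 kb into the gene, with 1145 bp in treated clone a and 200 bp in treated clone b.

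The best-scoring treated peak of Manba sat 59.1 kb into the gene (135542927 to 135546584), in a region called in all 4 libraries that was wider after treatment. Peaks covered 3.65 and 3.63 kb of it in treated clones a and b, against 1.38 and 1.33 kb in untreated clones a and b. Its peak stood at rank 39 of 59170 by score in treated clone a and rank 75 of 62764 in treated clone b. In the untreated lists it stood at rank 3359 of 61203 in clone a and 2597 of 63276 in clone b. The best-ranked Manba peak of untreated clone a was another, 20.3 kb into the gene, and that of untreated clone b lay 61.7 kb in. Ranks come from lists of different lengths and describe each list alone.

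Other shared regions of Manba widened as well. The one 48.3 kb into the gene had 1.59 and 1.72 kb in treated clones a and b, against 0.239 and 0.201 kb in untreated clones a and b. At 37.7 kb the values were 3.05 and 2.58 kb in treated cells, against 1.85 and 1.46 kb in untreated cells. At 64.3 kb they were 3.75 and 4.05 kb in treated cells, against 2.24 and 3.33 kb in untreated cells. The region at 20.2 kb overlapped between groups, with 2.44 and 1.47 kb in treated cells and 2.02 and 1.59 kb in untreated cells. Of the 12 shared regions in the window, 7 were wider in both treated libraries than in both untreated ones and 0 were narrower, against 27.3% wider and 21.5% narrower over all 30131 regions called in every library. Manba was chosen for its peaks after treatment, so this comparison adds no evidence. The region inside Ube2d3, among the 7, separated narrowly. It had 2.72 and 2.96 kb in treated clones a and b, against 2.70 and 2.62 kb in untreated clones a and b.

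**Figure D3:**
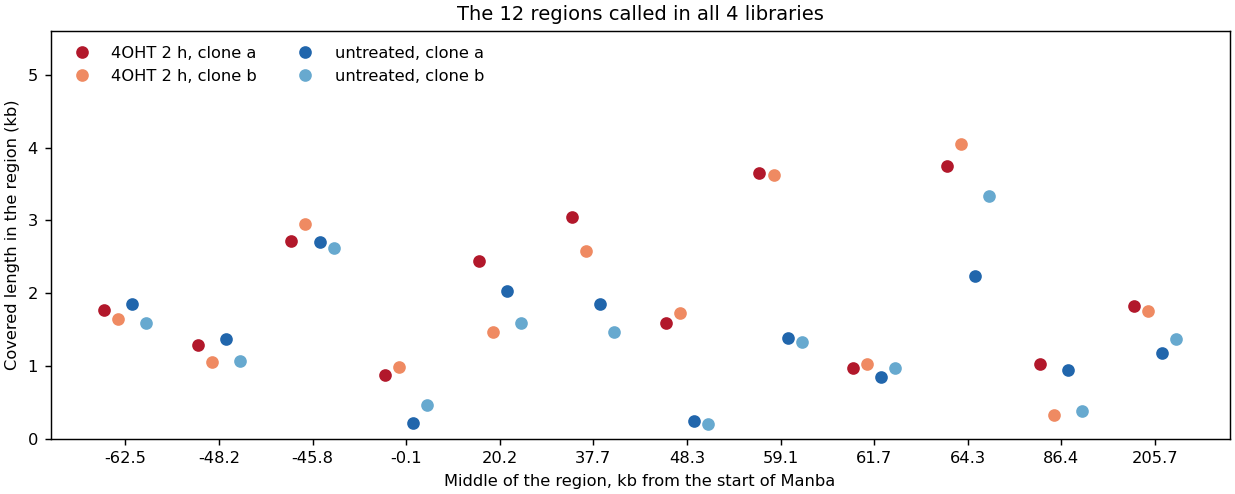
Covered length (kb) of the 12 regions called in all 4 libraries, 1 point per library, ordered by distance of the region's middle from the start of Manba. Treated and untreated points separate at 7 regions, most widely at 59.1 and 48.3 kb, and overlap at the other 5.

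By length, gained regions supplied 44.1% of the increase in the window, shared regions 25.8% and regions of other patterns 30.1%. The densest 20 kb of Manba in treated cells (135531611 to 135551610), picked by its coverage, was covered to 74.8% and 77.9% in treated clones a and b, against 23.5% and 29.2% in untreated clones a and b. It held 9 gained regions.

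The start of Manba carried small peaks in untreated cells and more covered length in treated cells. In the region over the start (135484988 to 135485966) treated clones a and b had 870 and 979 bp under peaks, against 216 and 469 bp for the untreated clones in the same order. The best score percentiles there were 62.6 and 66.2 in treated cells, and 3.57 and 29.4 in untreated cells. Untreated clone b had separate peaks before the start, at percentile 1.08, and after it, at 29.4. The lncRNA gene Gm30992 ends just before the start of Manba in the table, so the peaks cannot be given to either gene. The start of Ube2d3 lay between 2 regions called in all 4 libraries. The one before it covered 1.17 ± 0.162 kb in treated cells and 1.22 ± 0.221 kb in untreated cells, and the one inside the gene 2.84 ± 0.168 kb in treated cells and 2.66 ± 0.0580 kb in untreated cells (SD, n = 2 each). The bases just before each start show what these peaks cover. They are from the RefSeq promoter table of GRCm38.p6, which held 2 of the 3 genes, both on the plus strand. Each is written 5′ to 3′ in lower case, with capitals for GGGCGG, the GC box bound by SP and KLF factors, or its complement CCGCCC.
Manba, chr3:135485361-135485610: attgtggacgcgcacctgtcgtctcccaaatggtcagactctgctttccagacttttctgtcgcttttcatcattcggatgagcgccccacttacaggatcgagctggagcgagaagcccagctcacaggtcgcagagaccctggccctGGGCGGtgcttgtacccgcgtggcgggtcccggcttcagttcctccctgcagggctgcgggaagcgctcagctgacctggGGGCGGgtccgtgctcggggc
Ube2d3, chr3:135437982-135438231: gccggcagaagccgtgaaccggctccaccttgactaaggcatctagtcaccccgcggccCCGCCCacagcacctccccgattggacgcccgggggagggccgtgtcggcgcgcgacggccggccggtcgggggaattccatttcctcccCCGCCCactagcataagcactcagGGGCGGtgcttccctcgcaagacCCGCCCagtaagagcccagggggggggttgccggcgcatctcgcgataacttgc

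Of these 250 bases at Manba, peaks covered all 250 in both treated libraries, and 195 and 213 in untreated clones a and b. At Ube2d3 they covered 96 and 67 bases in treated clones a and b, against 95 and 64 in untreated clones a and b. The GC box occurred 2 times at Manba and 4 times at Ube2d3, and 32.7% of 32851 promoters of that length held it on either strand. The G+C content was 63.6% at Manba and 69.6% at Ube2d3, with a median of 52.4% over all promoters. On either strand there were 0 matches in both for the ETS site CCGGAAGT (in 2.88% of promoters), the AP-1 site TGANTCA (6.75%) and the CRE TGACGTCA (1.55%). None of these motifs contains another. A match is a run of letters and not a bound site.

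Most of the change in the Ube2d3 window lay in Manba. In its extended window peaks covered 13.3 and 12.1 kb in treated clones a and b, against 8.77 and 7.91 kb in untreated clones a and b, a log2 change of 0.58 ± 0.13 (SE). That window includes the first 32.6 kb of Manba, which supplied 83.4% of the increase. Inside the Ube2d3 gene the values were 2.72 and 3.60 kb in treated cells, and 2.70 and 2.62 kb in untreated cells. In the 50 kb before it they were 3.42 and 2.70 kb in treated cells, and 3.23 kb in each untreated clone. The difference was positive in clone a (0.187 kb) and negative in clone b (-0.526 kb). The 0.58 thus depended on the window: with 10 kb on each side, which leaves out Manba, the log2 change was 0.14 ± 0.14. With 100 kb it was 1.27.

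Most of the change in the Nfkb1 window also lay in Manba. In its extended window peaks covered 27.9 and 23.0 kb in treated clones a and b, against 7.33 and 8.69 kb in untreated clones a and b (log2 change 1.61 ± 0.15 SE). The last 36.8 kb of Manba supplied 75.7% of the increase. The increase of the window outside Manba was 4.24 kb. With 10 kb on each side, which leaves out Manba, the log2 change of Nfkb1 was still 1.36 ± 0.26 (SE). For Manba with 10 kb on each side it was 1.69. Inside the 107 kb Nfkb1 gene, 3.47 and 2.37 kb were covered in treated cells, and 1.33 and 1.21 kb in untreated cells. The groups did not overlap, but the covered share of the gene was at most 3.23%. Its right-hand end held a region called in all 4 libraries (135690377 to 135692243), with 1.82 and 1.76 kb in treated cells, against 1.17 and 1.38 kb in untreated cells. The only gained region inside the gene lay near its other end (135593659 to 135594177) and had 427 and 286 bp in treated cells. In the gap between Manba and Nfkb1, treated clones a and b had 4.76 and 1.78 kb, against 1.47 and 0.949 kb in untreated clones a and b.

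**Figure D4:**
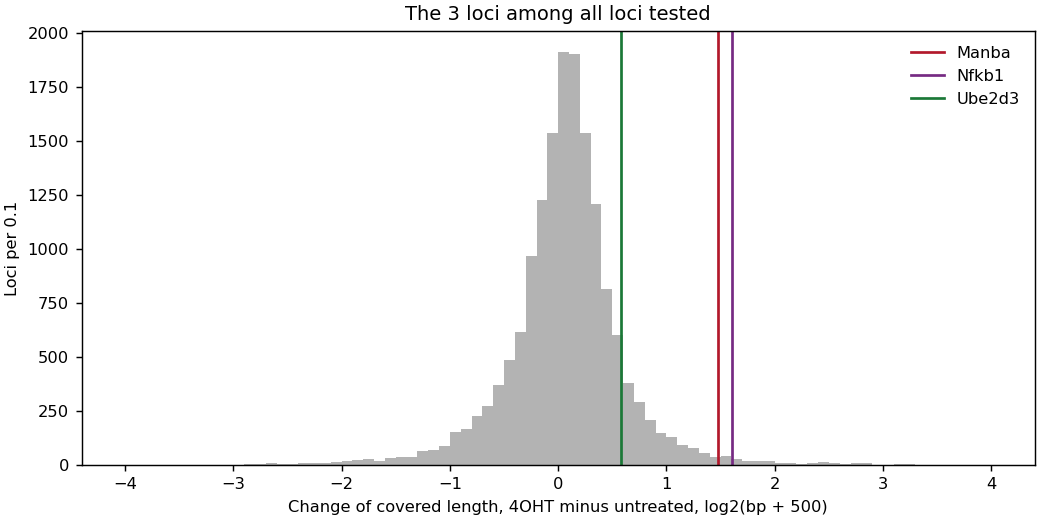
Distribution of the change of covered length (4OHT minus untreated, log2 of bp + 500) over 16049 loci, with lines at Manba (1.48), Nfkb1 (1.61) and Ube2d3 (0.58). Windows of the 3 genes share peaks, so the lines are not separate observations.

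Both clones showed the gain, and it was longer in clone a. In the Manba gene the treated minus untreated difference was 26.1 kb in clone a and 21.7 kb in clone b. Within clone a 35 regions of the window were called after treatment only and 0 before it only. Within clone b the numbers were 29 and 4. Over all regions the shares called after treatment only were 16.1% and 18.8%, and before it only 18.0% and 17.9%. Nearly all bases under untreated peaks of the window stayed under treated peaks: 98.0% in clone a and 91.5% in clone b, against 73.7% and 73.3% over the genome. In the window, treated peaks covered 2.81 and 2.37 times the untreated length in clones a and b. Manba was chosen for that gain, so these comparisons with the genome add no evidence. Of the treated bases 34.9% and 38.7% were also covered in the untreated library of that clone. Treated clones shared a Jaccard index of 0.653 in the window and untreated clones one of 0.626.

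Most of the flanking sequence held no peaks in any library. Of 38 bins of 50 kb that lay wholly outside the 354 kb window, up to about 1 Mb away, 29 were empty in all 4 libraries. In 4 of the other 9 both treated libraries had more covered length than both untreated ones, and in 0 of them less. The share of such bins over the genome was not computed, so these counts show no excess. The bin 250 to 300 kb after the start of Manba crosses the window's edge and was not counted. It was lower after treatment, with 0 and 0.281 kb in treated clones a and b, against 1.82 and 0.518 kb in untreated clones a and b. Its peaks all lay beyond the window. Among the 4, the bin 300 to 350 kb after the start of Manba held only 0.2 and 0.229 kb in treated clones a and b. It held 0 kb in both untreated clones. The bins at 1150 to 1200 kb and 1200 to 1250 kb, also among the 4, adjoin each other. Both lie in the extended interval of Ppp3ca, described below, and hold the same peaks as that gene. The largest difference of means, 1.87 kb, was in the bin 200 to 150 kb before the start of Manba, with 3.71 and 4.99 kb in treated clones a and b, against 2.50 and 2.47 kb in the untreated pair. The 2 bins that hold Manba differed by 11.2 and 14.8 kb. Of 6 coding genes within 1000 kb whose extended intervals do not touch the window, 4 had enough coverage to be tested over all loci, where 6.87% were called (4.00% longer and 2.87% shorter). In that fit, which had no clone term, only Ppp3ca, a calcineurin catalytic subunit 928 kb away on the Nfkb1 side, passed. It had 4.20 ± 0.216 kb in treated cells and 1.69 ± 0.327 kb in untreated cells (SD, n = 2 each). The log2 change was 1.11 (limma adjusted p = 0.0370). The main fit called 642 loci longer and 461 shorter over the genome. Ppp3ca was not called with no length filter, where 88 and 53 were. Nor was it called with the upper 50% of peaks by score, where 187 and 134 were. With a library left out, which leaves 1 library in a group, its log2 change was 0.96 to 1.26. On the Ube2d3 side, Bdh2 had a limma adjusted p = 0.109 and Cenpe 0.210, both with positive log2 changes (0.69 and 0.71). With clone as a factor in limma, which called 38.2% of all loci, Bdh2, Cenpe and Ppp3ca all passed. The limma adjusted p was then 0.00556, 0.00564 and 0.00146. The windows of Bdh2 and Cenpe share peaks. On the Nfkb1 side, Bank1, a B cell scaffold, had 2.56 ± 0.0849 kb in treated cells and 2.58 ± 0.0884 kb in untreated cells. Slc39a8, a metal ion transporter on the same side, and Tacr3, a neurokinin receptor on the Ube2d3 side, were below the filter, with at most 0.518 kb.

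**Figure D5:**
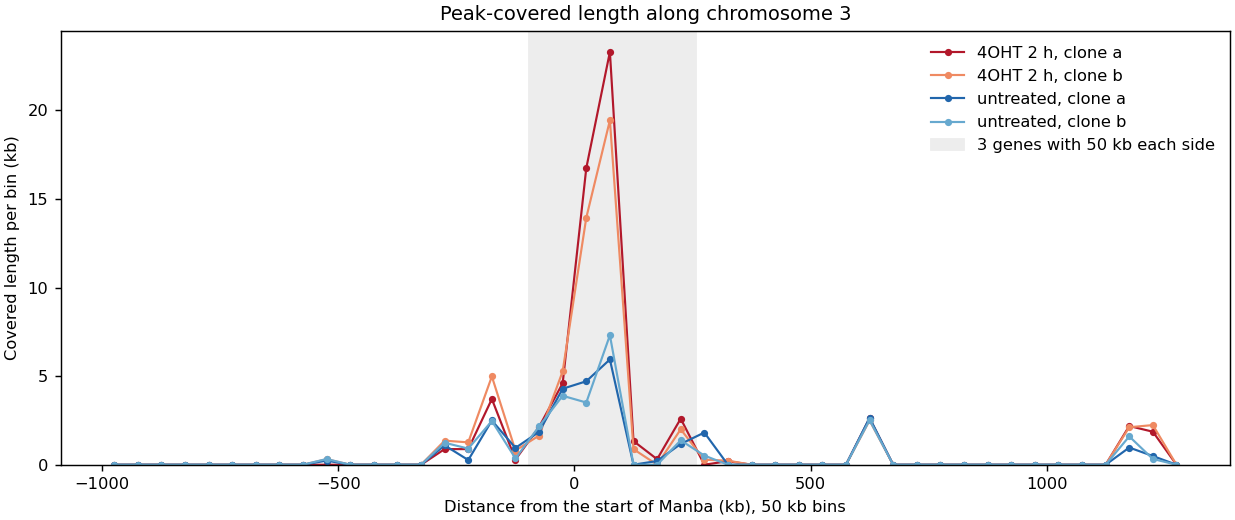
Covered length (kb) per 50 kb bin against distance from the start of Manba, 1 line per library; the grey band marks the 354 kb window. The libraries separate most in the 2 bins over Manba. Of the 38 bins wholly outside the band, 29 are empty in all 4 libraries.

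Of 89 other genes of the 3 pathways that were tested, 3 were called (1 longer and 2 shorter), where 6.87% of all loci were called. Lists were made of NF-kappaB subunits and regulators, lysosomal glycosidases and sulfatases, and E2 enzymes with their partners, leaving out Nfkb1, Manba and Ube2d3. Of 28 NF-kappaB loci tested, 1 rose and 1 fell (7.14% called, median log2 change 0.05). Tbk1, a kinase related to the I-kappaB kinases, rose to 14.5 ± 2.49 kb in treated cells, against 6.32 ± 1.45 kb in untreated cells (log2 change 1.14, limma adjusted p = 0.0415). Map3k7, the kinase TAK1 upstream of the I-kappaB kinases, fell to 4.84 ± 0.573 kb, against 8.53 ± 0.308 kb in untreated cells (log2 change -0.76, limma adjusted p = 0.0429). Of 27 lysosomal loci 0 rose and 1 fell (3.70%, median 0.06). That was Psap, the precursor of the saposins, which activate lysosomal enzymes, with 1.82 ± 0.0912 kb in treated cells and 4.44 ± 1.07 kb in untreated cells (log2 change -1.08, limma adjusted p = 0.0451). Of 35 E2 loci 0 passed, with a median of 0.07. An unadjusted p below 0.05 in limma was found for 8 of the NF-kappaB loci (28.6%), 9 of the lysosomal loci (33.3%) and 9 of the E2 loci (25.7%), against 27.8% of all loci. With clone as a factor, 21 of the 89 rose and 17 fell (42.7%, each gene counted once), against 38.2% of all loci. By list, 8 rose and 7 fell among the NF-kappaB loci (53.6%). The numbers were 7 and 5 for the lysosomal loci (44.4%) and 6 and 6 for the E2 loci (34.3%). The difference of each list from all loci was not tested. With a library left out, the log2 change was 0.92 to 1.36 for Tbk1, -0.87 to -0.65 for Map3k7 and -1.30 to -0.85 for Psap. Such a fit leaves 1 library in a group, so it cannot decide whether a call holds. With no length filter none of these genes was called. That fit called 88 loci longer and 53 shorter over the genome, against 642 and 461 in the main fit. With 10 kb windows the log2 change of Tbk1 was 0.39 and was not called.

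The loci whose covered lengths lay nearest to those of Manba in the 4 libraries were found by Euclidean distance of log2(bp + 500), among loci over 1 Mb away. The nearest was Arntl, a circadian clock factor, at a distance of 0.65, with 42.3 and 42.7 kb in treated clones a and b, against 23.2 and 16.2 kb in untreated clones a and b. Mroh4 followed at 0.84, and Gdpgp1 and Cib1, which are adjacent genes with equal values, at 0.86, as did Ppp1r9a. Gained regions numbered 7 at Arntl, 6 at Mroh4, 5 at Ppp1r9a and 2 each at Gdpgp1 and Cib1, with 0 lost at any of them. Across the genome 6.20% of regions were gained and 6.26% lost. These loci were picked for lengths like those of Manba in both groups, so the counts are a description with no test. Arntl and the others had more coverage than Manba before treatment (16.1 to 23.2 kb in the untreated libraries).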

How the data were processed

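The authors deposited 1 peak list per H3K27ac library, with start, end and a peak score, on mm10. The submitters' processing notes name Bowtie2, bedtools and MACS2; their versions and thresholds, and whether inputs were used, were not given in the sources used here. The score deposited by the authors has no stated scale and was used only to rank or filter within a list. The 4 input libraries were not analysed here.

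Peaks overlapping by 1 bp were merged over the 4 lists. Covered length per gene with 50 kb on each side was fitted over loci with a mean of at least 1000 bp as log2(bp + 500) in limma 3.58.1 (R 4.3.3), with a mean-dependent prior variance, no clone term and Benjamini-Hochberg adjustment at 0.05; the code was tested on simulated data. Neighbouring windows share peaks. With 2 clones per group, p-values rest on the spread between these clones and on the prior variance shared over loci. Without a clone term, that spread includes differences between the clones that both treatments share. Clone letters pair the treatments, since same-lettered libraries come from the same clone; deviations of clone a correlated at 0.611 over 16049 loci. The gene table (GRCm38.p6, the coordinates of mm10) gives no exons, so exonic and intronic positions were not separated.

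The members and lists were chosen with earlier results of these data known. Named genes were the 3 members, up to 10 called genes per list, the 3 nearest flanking genes on each side and the 5 loci nearest to Manba in covered length.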

Additional observations from a re-analysis of the deposited data

How the results depend on the processing

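Changes of the 3 loci kept their direction under every alternative run. For Manba the log2 change was 1.69 with a 10 kb window and 1.30 with the upper 50% of peaks, and 1.37 to 1.58 with a library left out. For Nfkb1 these were 1.36, 1.21 and 1.47 to 1.75. For Ube2d3 it was 0.14 with 10 kb, 1.27 with 100 kb and 0.51 to 0.65 with a library left out. Gained regions of the window, 18 in all, numbered 4 when peaks within 1000 bp were merged and 5 in the upper 50% (2 and 3 of these held none of the 18), and 20 to 35 with a library left out; lost regions numbered 0 to 3 with a library left out, and 3 without untreated clone a. Over the genome gained and lost regions numbered 2569 and 2508 on merging, 2665 and 2529 in the upper 50%, and 7210 to 14159 and 7265 to 13473 with a library left out. The counts of called loci over the genome, 642 longer and 461 shorter, were 393 and 278 with 10 kb, 88 and 53 with no length filter, 187 and 134 in the upper 50%, and 0 to 406 and 0 to 162 with a library left out. In the paired fit (clone as a replicate block) they were 3639 and 2486. For the 3 lists together, 1 longer and 2 shorter, they were 21 and 17 in the paired fit, 0 longer with 10 kb, 2 longer with a pseudocount of 2000 bp, 1 shorter with 100 kb, 0 and 0 with no filter, 0 shorter in the upper 50%, and 0 to 1 and 0 with a library left out. The 1 flanking gene called, Ppp3ca, became 3 genes in the paired fit and 0 with no filter or in the upper 50%, and was 0 to 1 with a library left out. The log2 change of Bank1, -0.01, was 0.0038 on scaling to equal covered length, 0.039 in the upper 50%, and -0.040 to 0.019 with a library left out (0.018 without treated clone b, 0.019 without untreated clone a). The causes were not tested. Only 2 clones per group and unknown depth limit the precision.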
